A study of Gossypium barbadense and Gossypium hirsutum with 8 samples.

Results

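The 3 low-yield cotton lines of a cross between species were set against SG747, the high-yielding parent, for transcript signals in developing fibre (4 of the 8 arrays of the study). Of the 24132 probe sets on the array, 14417 remained after the control probe sets and the dimmest 40% had been left out. A probe set was chosen when each of the 3 lines differed from SG747 by at least 1 log2 unit (2-fold) in the same direction. This held for 134 probe sets (0.929% of the 14417), 106 higher (0.735%) and 28 lower (0.194%) in the lines than in SG747. The signals of the lines and of SG747 chose these probe sets, so their differences are given as descriptions, and with 1 array of SG747 there is no p-value.

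A cotton fibre is a single cell that grows out of the surface of the seed coat, elongates for weeks and later fills its wall with cellulose. During elongation the cell is driven by turgor while its primary wall is loosened and extended and its vacuole enlarges. Gossypium hirsutum (upland cotton) is grown for its yield, and G. barbadense for its long and fine fibre. Backcross inbred lines carry a mosaic of both parental genomes in a fixed state, so each line can be set against each parent.

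All fibres were stripped from ovules at 10 days post anthesis (days after flowering). The low-yield lines were NMGA066, NMGA095 and NMGA023 (low-yield lines 1, 2 and 3), and the high-yield lines were NMGA144, NMGA017 and NMGA026 (high-yield lines 1, 2 and 3, numbered as in the sample titles). The design text gives the names of high-yield lines 1 and 3 the other way round, so which of these genotypes a value of line 1 or 3 belongs to is not settled. The parents were SG747, a G. hirsutum cultivar labelled high-yielding, and Giza75, a G. barbadense cultivar labelled low-yielding. Each genotype had 1 array, and the labels list the low-yield lines under G. barbadense and the high-yield lines under G. hirsutum although every line descends from both. The labels name several field environments and do not say which one gave the fibre. A difference between a line and a parent therefore holds genotype, plant, sample and array together, and a difference in probe match between the species was not tested.

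Signals are the authors' intensities for each probe set, and the differences below are on the scale of log2(signal + 16) after quantile normalization of all 8 arrays, which gives every array the same distribution of values. The added 16 understates the change of dim probe sets. The median signal per array was 36.3, 30.5 and 13.2 in low-yield lines 1, 2 and 3, 22.3 in SG747, 17.0 in Giza75 and 13.5 to 26.0 in the high-yield lines. RNA spikes added before labelling had a geometric mean of 279 in SG747 against 152, 180 and 369 for low-yield lines 1, 2 and 3. The spikes added before hybridization were at 987 in SG747, the lowest of the 8 arrays, where the others lay between 995 and 1387. Over the 14417 probe sets the median log2 difference from SG747 was -0.10, -0.07 and -0.06 in low-yield lines 1, 2 and 3. Without the normalization it was 0.24, 0.20 and -0.70.

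The probe sets could not be tied to genes here. No file used here pairs them with names, and 0 of their identifiers matched the 74561 genes of the G. barbadense reference table. Identifiers are therefore printed for 2 probe sets in each direction, and the others are called by their rank. Rank 1 had the largest of the smallest differences over the 3 lines, among probe sets above the median level. No probe sequence was in the sources used here.

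The probe set with the largest difference was RPTR-Ghi-U57609-2_s_at, whose prefix marks it as one of Affymetrix's reporter probe sets, made for genes and vector sequences used in transgenic work. Its signal was 8500 in low-yield line 1, 1279 in line 2 and 2891 in line 3, against 21.2 in SG747. The other arrays split in the same way, with 16.3 in Giza75 and 963, 1180 and 1273 in high-yield lines 1, 2 and 3. All 6 lines were thus far above both parents, which lay close to the median signal of their own arrays. The log2 difference from SG747 was 6.37 ± 1.58 (SD, n = 3) over the low-yield lines. Here and below the SD is the spread between the low-yield lines and holds no error of the single SG747 array. The ending _s_at marks a probe set whose probes match more than 1 design sequence, and what bound to it in these samples was not tested.

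A second reporter probe set was also among the 106. It had 51.3, 61.3 and 17.7 in low-yield lines 1, 2 and 3 and 3.30 in SG747. Giza75 had 6.00 and the high-yield lines 12.6, 12.7 and 41.9, so here too each line was above each parent, at low signals. Of the 52 reporter probe sets, 49 others had signals of at most 21.0 on every array. The remaining 1 was bright throughout, at 7985 in SG747 and 8472 to 11007 elsewhere. Its signals lay close to those of a control probe set for cre, a spike added before hybridization (8241 in SG747 and 7831 to 11220 elsewhere).

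The second-ranked higher probe set, Ghi.1171.1.S1_s_at, was designed from G. hirsutum sequence. It had 2126, 1237 and 304 in low-yield lines 1, 2 and 3 and 81.8 in SG747, a log2 difference of 3.42 ± 0.95 (SD, n = 3). Giza75 had 325, close to low-yield line 3. The high-yield lines were spread to both sides of SG747, with 95.9, 1027 and 27.9 in lines 1, 2 and 3.

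The third-ranked had 920, 155 and 105 in the low-yield lines, 6.60 in SG747 and 148 in Giza75, a log2 difference from SG747 of 3.5 ± 1.34 (SD, n = 3). Its high-yield lines again parted, with 338 in line 2 and 22.6 and 25 in lines 1 and 3. In the ranked probe set after it, the deposited signals of the 6 lines were close: 212, 224 and 222 in the low-yield and 262, 191 and 189 in the high-yield lines. After normalization the lines ranged from 7.14 to 8.55 log2 units. SG747 was at 12.6 and Giza75 at 14.2, so this probe set, designed from G. hirsutum sequence and not marked as shared, was another in which each line stood above both parents.

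The fifth-ranked, designed from G. raimondii sequence, had 815, 355 and 60.8 in the low-yield lines, 10.2 in SG747 and 158 in Giza75. Its high-yield lines had 55.7, 57.8 and 8.40, each below the lowest low-yield line. The sixth-ranked had 590, 790 and 460 in the low-yield lines, 115 in SG747 and 648 in Giza75. Of its high-yield lines, line 3 was at 698, among the low-yield signals as deposited and above them after normalization (9.76 log2 units against at most 9.49), while lines 1 and 2 were at 131 and 246. Where SG747 was dim the size of the difference depended on the value added before the log: with 1 and 64 in place of 16 the third-ranked had 5.03 and 2.15 log2 units, and the fifth-ranked 4.56 and 2.14 instead of 3.37. The probe set between them, with 2.88 ± 0.76 (SD, n = 3), had 3.90 and 1.76.

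On the lower side the first-ranked probe set was GhiAffx.64086.1.S1_at. It had 363 in SG747 and 89.8, 114 and 39.6 in low-yield lines 1, 2 and 3, a log2 difference of -1.94 ± 0.26 (SD, n = 3). Giza75 was lower still at 28.9, and the high-yield lines had 89.3, 72.5 and 106. SG747 thus stood above all 7 other arrays.

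Ghi.9264.3.S1_s_at followed, with 341 in SG747, 142, 97.4 and 53.1 in the low-yield lines and 43.6 in Giza75 (log2 difference -1.61 ± 0.21, SD, n = 3). High-yield line 2 was nearest to SG747 at 210, and lines 1 and 3 had 44.8 and 63.2. The third-ranked had 318 in SG747 and 159, 140 and 38.1 in the low-yield lines, with 18.5 in Giza75 and 36.1, 285 and 61.6 in the high-yield lines.

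The fourth-ranked lower probe set had 535 in SG747 and 255, 39.8 and 53.8 in the low-yield lines. Giza75, at 188, lay within the range of the low-yield lines on the deposited scale but above each of them after normalization (7.97 log2 units against at most 7.41). High-yield line 1 was near it at 152, while high-yield lines 2 and 3 had 25.2 and 25.5. The fifth-ranked fell from 283 in SG747 to 105, 68.8 and 48.2, and the sixth-ranked from 309 to 138, 142 and 52.2. Giza75 was at 43.3 and 51.3 in these, below each low-yield line on the deposited scale. After normalization it was within their range for the fifth-ranked (6.17 in 5.94 to 6.62) and below them for the sixth-ranked.

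**Figure D1:**
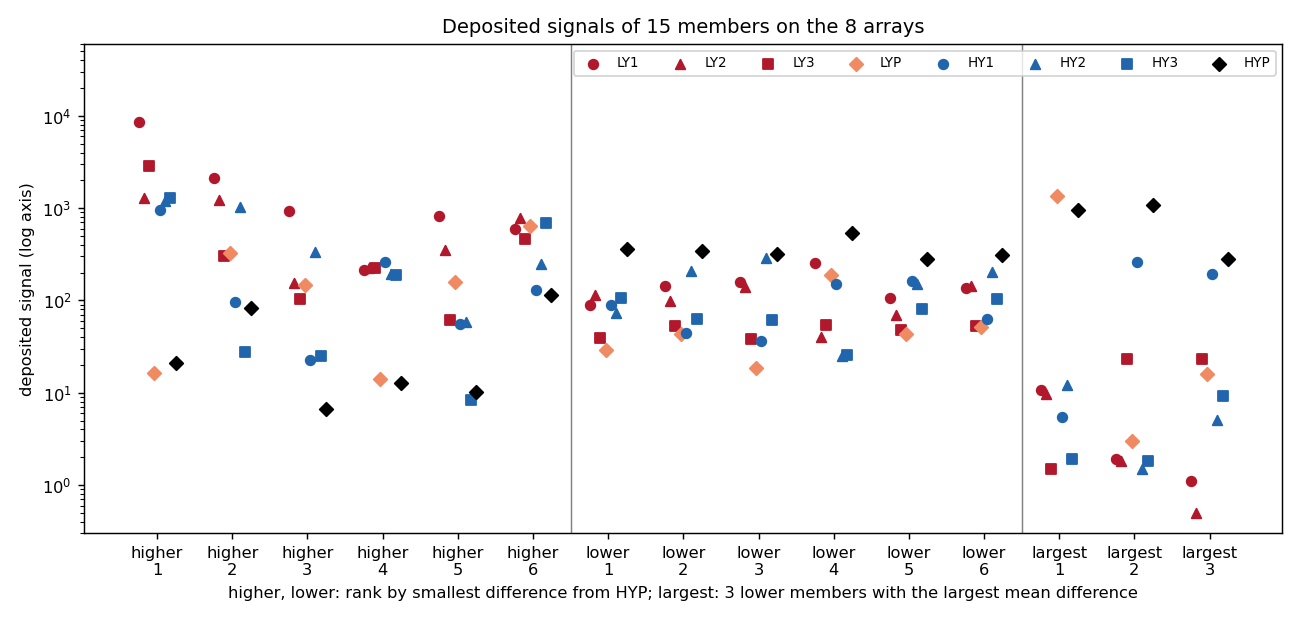
Deposited signals (vertical log axis) of 15 chosen probe sets on the 8 arrays, 1 point per array: LY1 to LY3 are the low-yield lines, HY1 to HY3 the high-yield lines, LYP is Giza75 and HYP is SG747. For the first higher probe set both parents lie at 16.3 and 21.2 and the 6 lines at 963 to 8500; for the first of the 3 largest lower differences the parents lie at 1339 and 945 and the lines at 12.2 or less.

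The largest mean differences on the lower side fell in probe sets below the median level, which the ranking passes over because the lines were near 0. They are described here after their values were seen. The largest under the reported setting had 945 in SG747 and 10.8, 9.80 and 1.5 in low-yield lines 1, 2 and 3 (log2 difference -5.08 ± 0.18, SD, n = 3). Giza75 had 1339 and the high-yield lines 5.40, 12.2 and 1.90. Both parents were therefore bright and all 6 lines dim, the reverse of the reporter probe set. The signals of the low-yield lines were all below the value added before the log, which narrows their spread and the SD. With 1 added to the signals the log2 difference was -6.87, and with 64 it was -3.48. The probe set described next had the larger difference under both (-7.13 and -3.52), and without the normalization (-5.55 against -5.39).

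The next had 1069 in SG747 and 1.90, 1.80 and 23.0 in the low-yield lines, with 3.0 in Giza75. Among the high-yield lines, line 1 was at 262 and lines 2 and 3 at 1.5 and 1.80. The one after it showed the same arrays apart: 281 in SG747 and 192 in high-yield line 1, against 1.10, 0.50 and 23.1 in the low-yield lines, 16.1 in Giza75 and 5.10 and 9.20 in high-yield lines 2 and 3. In both, high-yield line 1 stood apart from the rest with SG747. After normalization it was at 8.55 against 9.69 in SG747 for the first of the pair and at 8.15 against 7.90 for the second. The log2 differences of the pair, -5.02 and -3.27, were -7.13 and -5.60 with 1 added to the signals and -3.52 and -1.93 with 64.

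The threshold parted neighbouring values. The 3 higher probe sets nearest above it had smallest differences of 1.001, 1.005 and 1.007 log2 units, and the 3 nearest below had 0.996, 0.996 and 0.989. On the lower side the nearest above were at 1.010, 1.012 and 1.045 and the nearest below at 0.997, 0.995 and 0.985.

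Over the 106 higher probe sets, low-yield line 1 departed farthest from SG747. Its median log2 difference was 2.27 (range 1.07 to 7.80), against 1.47 (1.01 to 4.67) in line 2 and 1.48 (1.00 to 6.65) in line 3. Line 1 was the highest of the low-yield lines in 73 of 106 (68.9%), where it was highest in 25.1% of all 14417 probe sets. The lines lay within 1 log2 unit of each other in 42 of 106 (39.6%), against 65.1% of all probe sets. Over the 28 lower probe sets the lines were more alike on this scale, with medians of -1.60, -1.49 and -1.53 and a spread under 1 log2 unit in 20 of 28 (71.4%). There, 4, 4 and 12 of the 28 signals in low-yield lines 1, 2 and 3 were below the value added before the log, which narrows such differences. Over the 106 higher ones 0, 0 and 4 were. The part of these dim signals in the smaller spread was not tested.

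**Figure D2:**
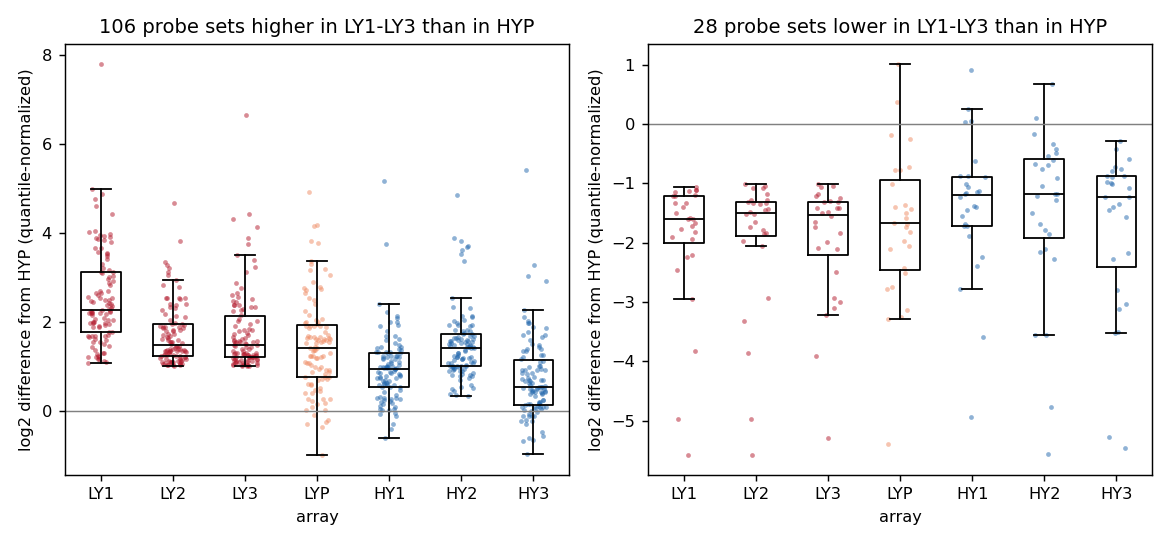
Log2 difference from SG747 (HYP) after quantile normalization for the 106 higher (left) and 28 lower (right) probe sets, 1 point per probe set and array, with boxes for the quartiles, a line for the median and whiskers to 1.5 times the box height. Low-yield line 1 (LY1) has the highest median on the left, 2.27, and high-yield line 3 (HY3) the lowest, 0.53.

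The higher probe sets were dim in SG747. Their median signal there was 17.1 (range 0.60 to 656), and 51 of 106 (48.1%) were below 16, the value added before the log, compared with 9.76% of all probe sets. The rule chose probe sets with SG747 below each line, so part of this is built in. The median signals in low-yield lines 1, 2 and 3 were 280, 127 and 53.2, and 0, 0 and 4 of the 106 were below 16. For the lower probe sets the median in SG747 was 257 (range 51.0 to 1069), with 51.0, 59.2 and 23.0 in the lines. By mean level over the 8 arrays, 17 of the 106 and 1 of the 28 were in the brightest 25% of the probe sets kept.

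Giza75 lay on the side of the lines for most of the chosen probe sets. It was at least 1 log2 unit above SG747 in 69 of the 106 higher ones (65.1%), within 1 log2 unit in 36 and at least 1 below in 1. Over all probe sets kept, Giza75 was that far above SG747 in 9.07% and that far below in 8.55%. Of the 28 lower ones, Giza75 was at least 1 log2 unit below SG747 in 21 (75%), within 1 log2 unit in 6 and at least 1 above in 1. These differences use the same SG747 array as the rule, so an unusual value on that array enters both, and they are no separate support for a parental difference. The share also rested on low-yield line 3: when lines 1 and 2 alone had to pass, Giza75 was on their side in 24.1% of 593 higher and 36.8% of 152 lower probe sets. SG747 was itself the lowest of the 8 arrays in 80 of the 106 higher probe sets (75.5%, against 6.96% of all). It was the highest in 21 of the 28 lower ones (75%, against 11.7%), and the rule favours both.

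Set against the lines themselves, Giza75 was below the lowest low-yield line in 47 of the 106 higher probe sets, within their range in 48 and above the highest in 11 (44.3%, 45.3% and 10.4%, against 23.9%, 49.4% and 26.7% of all probe sets kept). In 13 of the 106 (12.3%, against 2.29% of all) it was at least 1 log2 unit below all 3 lines, so that these lines exceeded both parents by that much. Beyond the 2 described above, a few had brighter parents, such as 801, 368 and 197 in the low-yield lines against 93.2 in SG747 and 73.4 in Giza75. In most, Giza75 was at 0.3 to 11.2, below the value added before the log, and SG747 was mostly dim too. An example had 125, 80.3 and 29.9 in low-yield lines 1, 2 and 3, against 3.1 in SG747 and 10.9 in Giza75. Among the 28 lower ones Giza75 was below the lines in 10, within their range in 10 and above them in 8 (35.7%, 35.7% and 28.6%), and in 3 (10.7%, against 1.45% of all) it was at least 1 log2 unit above all 3 lines. Since the rule chose extreme values of the lines, part of these shares is built in.

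**Figure D3:**
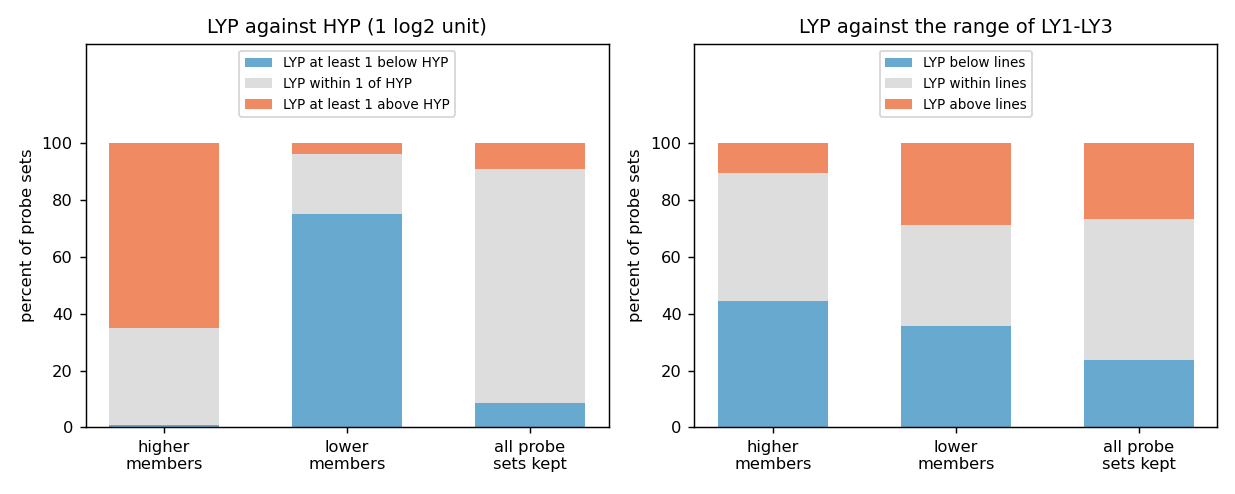
Percent of the 106 higher, the 28 lower and all 14417 probe sets by the place of Giza75 (LYP): against SG747 (HYP) in steps of 1 log2 unit (left), and against the range of the 3 low-yield lines (right). Giza75 is at least 1 log2 unit above SG747 in 65.1% of the higher and 9.07% of all probe sets, and at least 1 below in 75% of the lower and 8.55% of all.

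Giza75 against the 3 high-yield lines shares no array with the differences that the rule used. These arrays entered the choice only through the normalization and the filter on mean level. Giza75 was at least 1 log2 unit above all 3 high-yield lines in 9 of the 106 higher probe sets (8.49%, against 2.61% of all probe sets) and that far below them in 5 (4.72%, against 3.10%). Over all probe sets kept, one or the other held for 5.71%. Among the 28 lower ones it was that far below in 3 (10.7%, against 3.10%) and above in 2. The median log2 difference of Giza75 from the mean of the high-yield lines was 0.59 over the higher, -0.62 over the lower and 0.00 over all probe sets. There is 1 array of Giza75, so these shares carry no test. The 8.49% depended on which lines chose the probe sets: it was 20.7% without low-yield line 2 and 2.02% without low-yield line 3.

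In the median, the high-yield lines lay on the same side of SG747 as the low-yield lines and nearer to it. Their median log2 differences from SG747 were 0.93, 1.42 and 0.53 in high-yield lines 1, 2 and 3 over the higher probe sets and -1.20, -1.18 and -1.23 over the lower ones. They are set against the same SG747 array. The rule asked for a distance of 1 log2 unit from SG747 in the low-yield lines alone, so their greater distance is partly built in. In 37 of the 106 higher probe sets (34.9%) all 3 high-yield lines were below all 3 low-yield lines, and in 6 of the 28 lower ones (21.4%) they were above. Over all probe sets the shares were 2.03% and 4.18%. Part of this is built in, since the rule took probe sets with extreme low-yield signals. The 34.9% was 67.4% without low-yield line 2 and 83.3% without line 3, 15.4% on the deposited values, 18.9% with 1 added in place of 16 and 20% with median centring. The 21.4% was 59.3% without low-yield line 2, 69.7% without line 3 and 0% with 64 added. Without a line, the probe sets were chosen anew and the shares taken over the 2 low-yield lines left, with 420 and 593 higher probe sets in place of 106. In any set of probe sets, 2 low-yield lines are clear of the high-yield lines at least as often as all 3. Part of these larger shares can therefore be built in. The shares over all probe sets were not computed under these other settings.

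High-yield line 2 was the highest of the high-yield lines in 70 of the 106 higher probe sets (66.0%, against 37.9% of all), and line 3 the lowest in 61 (57.5%, against 33.2%). The rule used these arrays only in the normalization and in the mean level of the filter. High-yield line 2 and low-yield line 1, the highest line of each yield class over the 106, also had the highest ratios of 5' to 3' signal for the control transcript ss1, 0.408 and 0.428, where the other arrays had 0.108 to 0.345 and SG747 had 0.211. For the ubiquitin control ubq11 these arrays were again highest, at 0.658 and 0.598, but Giza75 was close at 0.584. The remaining arrays had 0.266 to 0.484 for ubq11, with SG747 at 0.484. For actin, high-yield line 2 and low-yield line 1 were at 0.158 and 0.157 in a range of 0.124 to 0.217. This ratio falls when RNA is degraded or copied short of the 5' end, and its part in these differences was not tested.

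The names of the probe sets showed few differences from the array. Of the 106 higher ones 84 (79.2%) were designed from G. hirsutum sequence and 19 (17.9%) from G. raimondii, against 81.7% and 17.7% of all probe sets kept. Of the 28 lower ones 25 (89.3%) and 3 (10.7%) were. Probe sets marked as matching several transcripts made up 71 of the higher (67%) and 11 of the lower (39.3%), against 53.5% of all. The 106 came from 104 design clusters and the 28 from 27, with 2 clusters and 1 cluster holding a pair.

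Other probe sets of the same design clusters are by the rule those that did not pass. The clusters of the higher ones held 87 of them, with a median difference from SG747 of 0.12 for the mean of the lines, against -0.08 over all probe sets kept. In 22 of the 87 (25.3%, against 17.6% of all) the 3 lines were each above SG747. These 87 belong to the clusters of 14 of the 106 alone. For the lower ones there were 10 further probe sets with a median difference of -0.36, and in 6 of them (60%, against 25.9% of all) the 3 lines were each below SG747.

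The number of probe sets past the rule was set beside the like comparisons. For the low-yield lines against SG747 it was 134, as given above. For the high-yield lines against SG747 it was 44 (0.305%), 30 higher (0.208%) and 14 lower (0.0971%). For the low-yield lines against Giza75 it was 539 (3.74%), 330 higher (2.29%) and 209 lower (1.45%). These comparisons share arrays, each rests on 1 parent array, and the differences between the counts were not tested.

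Which probe sets were chosen changed with the scale. Without the normalization 91 probe sets were higher and 44 lower, and of these 41 and 18 were among the 106 and 28. With cyclic loess, which aligns the arrays along the range of signals, 172 were higher and 30 lower, including 105 and 26 of the same. With 1 in place of 16 added to the signals 397 and 91 passed, and with 64 there were 21 and 11. A required difference of 2 log2 units left 8 higher and 3 lower.

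**Figure D4:**
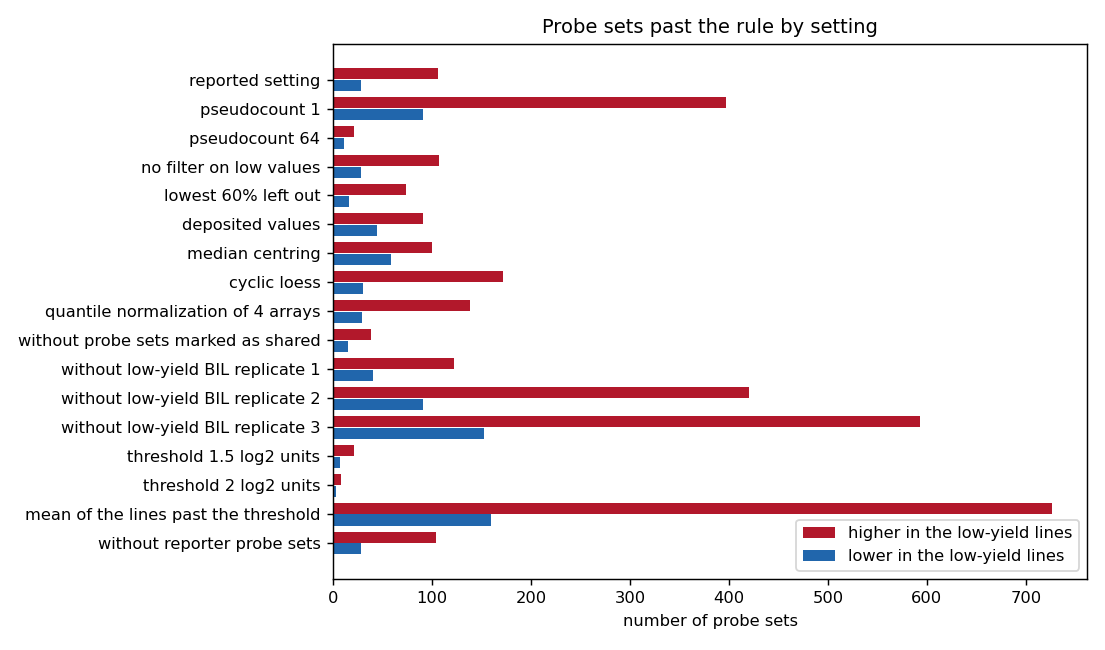
Number of probe sets (horizontal axis) higher or lower in the low-yield lines than in SG747 under each setting. The reported setting gives 106 and 28; the counts range from 8 to 726 higher and from 3 to 160 lower, with more higher than lower in each.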

How the data were processed

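Per the labels' protocols, total RNA of fibre (10 micrograms) was biotin-labelled for Affymetrix cotton arrays. The authors deposited 1 linear intensity for each probe set and array. GCOS and MAS5 are named in the submitters' processing notes; versions and scaling target are not given in the sources used here. The 8 columns were matched by sample identifier, and at most 1.19% of values were equal between any 2 arrays. The 103 AFFX control probe sets were dropped, leaving 24029. Values were transformed as log2(value + 16), quantile normalized over 8 arrays, and the 40% with the lowest mean left out (Python 3.11.15, pandas 2.3.3). Cyclic loess used limma 3.58.1 under R 4.3.3. The steps were tested on simulated data. No test was run, since each parent had 1 array; SDs are over lines. No detection calls were used. Precision is limited by the 8 arrays. Probe sets described were ranked by a written rule (smallest of the 3 differences, above the median level), and the gene lists could not be matched. The comparison, rule and lists were chosen with earlier results of these data known.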

Additional observations from a re-analysis of the deposited data

How the results depend on the processing

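Leaving out the reporter probe sets was added after seeing the data, and the other alternatives were planned. No paired analysis was possible because the counts come from no test and each parent has 1 array. None of the 15 described differences changed direction under the alternatives in which it was computed. This was fixed in advance where a low-yield line was left out, since each line had passed the rule in that direction. It was also fixed under the changed filters on low values, which used the same normalized values. The described differences were not computed with the quantile normalization of 4 arrays. Without shared probe sets 8 of the 15 were computed, and without reporter probe sets 14. Changes below have causes that were not tested, except that fewer probe sets entered where the filter was stricter or shared probe sets were left out.

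The counts of higher and lower probe sets were 397 and 91 with a pseudocount of 1, 21 and 11 with 64, 38 and 15 without shared probe sets, 21 and 7 at 1.5 log2 units, 8 and 3 at 2, and 726 and 160 when the mean of the lines had to pass. The higher count was 172 with cyclic loess, and the lower count 16 without the lowest 60%, 44 on the deposited values and 59 with median centring. Without each low-yield line in turn the counts ranged from 122 (line 1) to 593 (line 3) higher, with 420 without line 2, and from 40 to 152 lower.

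Giza75 lay on the side of the lines in 78.1% of the higher probe sets with a pseudocount of 1, and in 24.1% to 64.8% of the higher and 36.8% to 78.0% of the lower ones without each line. The share of higher probe sets with Giza75 above all high-yield lines was 2.63% without shared probe sets and 2.02% to 20.7% without each line. The matching share of the lower ones was 0% with a pseudocount of 64 and 3.33% with cyclic loess. High-yield and low-yield lines did not overlap in 18.9% (pseudocount 1), 15.4% (deposited values) and 20% (median centring) of the higher ones, and in 34.4% to 83.3% without each line. For the lower ones this was 0% with a pseudocount of 64 and 27.5% to 69.7% without each line. Leaving out a line makes a lack of overlap easier to reach, and the shares over all probe sets were not computed under these settings.

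The share designed from G. hirsutum was 90.1% (deposited values), 89.5% (without shared probe sets) and 81.1% to 87.4% (without each line) of the higher ones, and 72.5% (pseudocount 1), 100% (pseudocount 64) and 100% (without shared probe sets) of the lower ones. The share marked as shared was 53.9% and 90.5% of the higher ones with pseudocounts of 1 and 64, and 9.09% of the lower ones with 64. The median difference from SG747 over all probe sets kept was 0.24, 0.20 and -0.70 in low-yield lines 1, 2 and 3 on the deposited values, -0.21 and -0.31 in lines 1 and 3 with median centring, and -0.0256, -0.0221 and 0.0272 with cyclic loess.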

Other observations

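The array holds 4 probe sets for cotton ribosomal RNA, none of which passed the rule. On the first, the normalized log2 level was 7.63 in SG747, the lowest of the 8 arrays, and 8.66, 8.07 and 10.53 in low-yield lines 1, 2 and 3. Giza75 was at 9.92 there. On the second SG747 was again lowest at 9.65, with 10.99, 10.10 and 12.20 in the low-yield lines and 11.70 in Giza75. On the third SG747 was also lowest at 5.78, with 6.03, 6.30 and 7.12 in the low-yield lines and 7.55 in Giza75, the highest. The fourth had 6.19 in SG747 and 6.64, 6.63 and 6.06 in the low-yield lines, so line 3 was below SG747 there. Giza75 was again highest on the fourth, at 8.14. These signals were not tested as a source of the differences.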
